A study of Mus musculus with 21 samples.

Results

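The forkhead transcription factors were examined as 1 gene family on arrays of whole fetal mouse lungs. All genes with a symbol made of Fox, 1 letter and 1 number were taken from probe sets that carry a single gene symbol, which gave 43 genes of the 22179 on the array, read from 47 probe sets. A gene with more than 1 probe set was represented by the one with the highest mean over all 21 arrays. The 21 lungs came from wild type Balb/c fetuses at E18.5, 1 array each. CS fetuses (n = 12, 6 males and 6 females) came from dams that inhaled mainstream cigarette smoke, and AIR fetuses (n = 9, 5 males and 4 females) from dams that breathed filtered air. Exposure began soon after mating and ended the day before the lungs were taken, and in the labels the mothers of the AIR fetuses are described as untreated. By the methods, 1 male and 1 female were taken per litter, but which fetuses are littermates is not given in the sources used here, so that p-values measure the spread between these fetuses as if they were independent.

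Forkhead factors share a DNA-binding domain of the winged helix type and differ in the cells that make them. In the lung, the FOXA proteins open chromatin for epithelial genes, FOXJ1 switches on the genes of motile cilia, and the FOXP proteins repress genes in the distal and airway epithelium. FOXF1 acts in mesenchyme and capillaries downstream of hedgehog signals, FOXC and FOXO proteins act in vessels, and FOXM1 drives cells into mitosis. Because an array of a whole lung sums all cells, fewer cells of a type and less RNA per cell cannot be told apart.

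The values were robust multi-array average (RMA) intensities on a log2 scale, so that a step of 1 doubles the intensity, and the array medians lay between 2.1 and 2.2. Detection calls were not at hand, and the 1091 probe sets of olfactory receptors, genes of the nose, were used to mark a dim level. Their means had a median of 1.28 and a 95th percentile of 1.97. Of the 43 forkhead genes, 30 had a mean above this percentile and 13 did not (Foxb1, Foxc1, Foxc2, Foxd1, Foxd2, Foxd3, Foxd4, Foxe3, Foxh1, Foxi2, Foxl2, Foxn1 and Foxr2). The lung label fitted its markers in every array, with Nkx2-1, the lung and thyroid regulator, between 6.05 and 6.67 and the surfactant gene Sftpc between 11.2 and 11.7. The arrays also held other tissue, read from lists of heart muscle, thymocyte, oesophagus and liver genes. Of the 21 arrays, 10 lay more than 1 log2 unit above the median of all arrays for the mean of such a list. The other 11 were 8 of the 12 CS and 3 of the 9 AIR arrays, so that the groups were uneven in this. Means over CS and AIR arrays were 4.76 and 5.27 for the heart and 2.24 and 1.93 for the thymocyte list. They were 2.38 and 2.62 for the oesophagus and 1.74 and 1.66 for the liver list. The heart list (12 of 12 genes measured) ranged from 4.0 to 7.56 in CS and from 4.27 to 6.84 in AIR fetuses, the thymocyte list (10 of 12) from 1.53 to 5.15 and from 1.65 to 3.59, the oesophagus list (10 of 11) from 1.91 to 4.08 and from 1.90 to 3.93, and the liver list (10 of 11) from 1.51 to 2.52 and from 1.53 to 1.83.

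The first comparison asked which forkhead genes differed between smoke and control lungs of both sexes. The study called a gene when its fold exceeded 1.2 in either direction with p under 0.05 before adjustment. At this threshold Foxp2, Foxn4 and Foxm1 were higher in CS lungs and Foxk2 was lower, 4 of 43 genes. Over all 40543 probe sets tested, 4.41% passed this threshold, 2.22% higher and 2.19% lower. An unadjusted p under 0.05 without a fold limit was met by 6 of the 43 genes, with Foxp1 and Foxj1 as the additional ones, and by 7.49% of all probe sets. After Benjamini-Hochberg adjustment of the limma p over all probe sets, 0 of the 43 genes and 0% of the probe sets reached a false discovery rate of 10%, and the lowest adjusted p of any probe set was 0.348. The median difference of the 43 genes was 0.023 on the log2 scale, with 24 genes above 0 and 19 below, and that of all probe sets was 0.00094. The 30 genes above the dim level held all 4 calls, and the 13 dim ones held 0 calls, with differences between -0.16 and 0.21. In a fit of the 21643 probe sets above the dim level, 699 were called higher and 626 lower. With 13 genes, 0 calls cannot be told from the share of all probe sets.

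**Figure D1:**
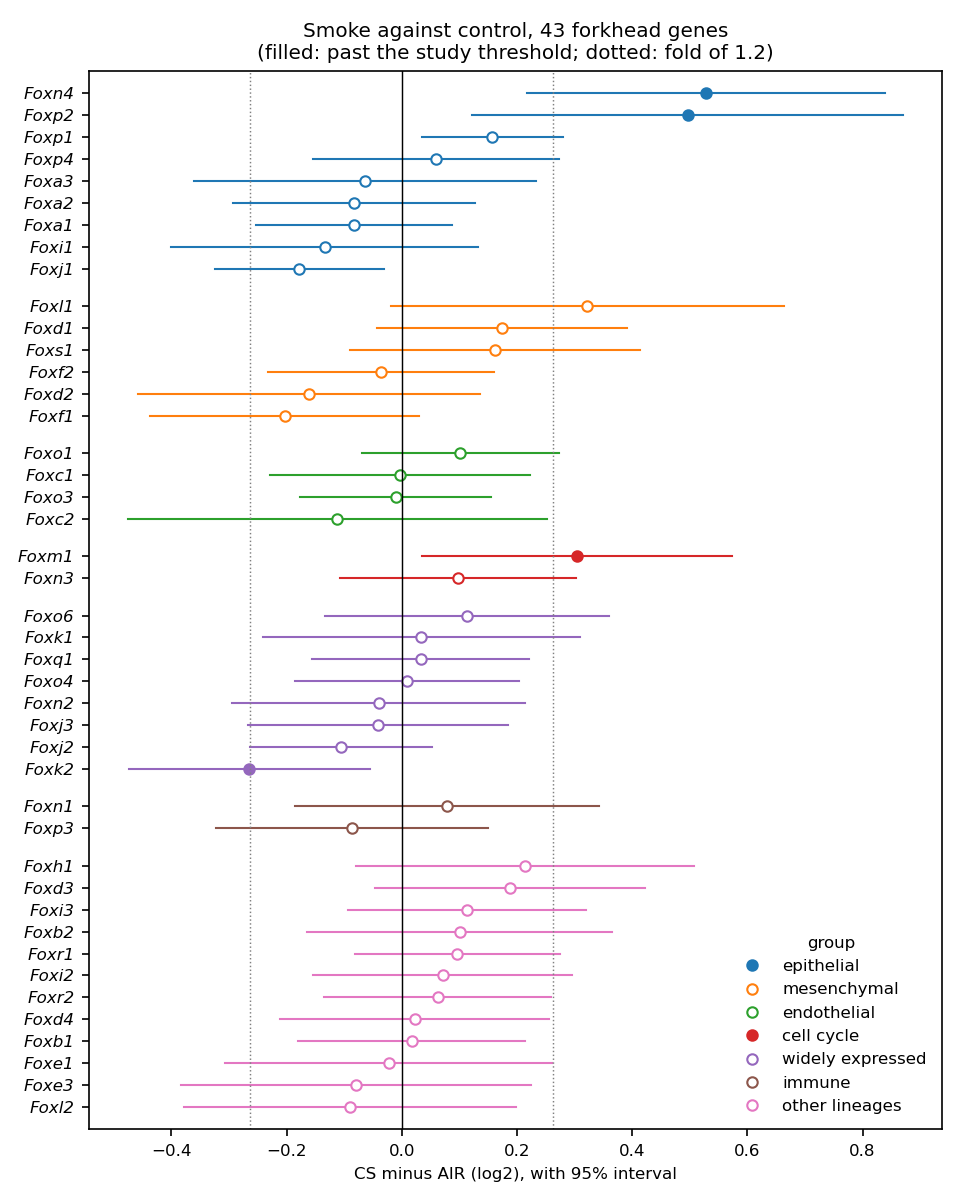
Difference between CS (n = 12) and AIR (n = 9) lungs in log2 intensity for the 43 forkhead genes by group. Circles are the differences, lines the 95% intervals of limma, and dotted lines mark a fold of 1.2; the 4 filled circles are Foxn4 (0.53), Foxp2 (0.50), Foxm1 (0.30) and Foxk2 (-0.27), the genes past the threshold of the study.

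Promoter sequences of the 250 bases before the start site were taken from RefSeq (GRCm38.p6), where 28 of the 43 genes were matched with 33 promoters. Those of Foxn4 and Foxk2 are shown because these genes passed the threshold, and that of Foxa1 because it alone among the 33 held the forkhead word GTAAACA on either strand. Foxp2 and Foxm1 had no entry. Capitals mark the words searched on both strands, which were GTAAACA, the cell cycle word TTTGAA, the E2F words TTTGGCGC and TTTCGCGC, CCAAT and TATAAA, and ATTGG is CCAAT read from the other strand.
Foxn4, chr5:114273762-114274011, minus strand: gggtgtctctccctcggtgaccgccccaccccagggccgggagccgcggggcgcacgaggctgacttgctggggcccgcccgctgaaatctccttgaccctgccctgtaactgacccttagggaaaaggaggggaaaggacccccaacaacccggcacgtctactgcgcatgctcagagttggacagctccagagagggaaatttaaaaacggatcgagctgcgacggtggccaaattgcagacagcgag
Foxk2, chr11:121259737-121259986, plus strand: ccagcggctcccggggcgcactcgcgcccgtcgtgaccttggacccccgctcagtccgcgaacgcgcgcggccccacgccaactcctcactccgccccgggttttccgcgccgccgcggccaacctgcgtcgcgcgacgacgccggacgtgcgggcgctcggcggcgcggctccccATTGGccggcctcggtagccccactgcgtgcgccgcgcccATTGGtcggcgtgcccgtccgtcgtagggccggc
Foxa1, chr12:57546112-57546361, minus strand: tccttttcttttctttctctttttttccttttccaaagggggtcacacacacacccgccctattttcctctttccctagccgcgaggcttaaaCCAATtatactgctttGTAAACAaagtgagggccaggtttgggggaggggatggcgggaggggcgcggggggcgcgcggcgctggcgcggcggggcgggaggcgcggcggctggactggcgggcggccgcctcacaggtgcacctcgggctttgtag
The Foxk2 promoter held CCAAT 74 and 34 bases before the start, the Foxa1 promoter held CCAAT 157 bases before it with GTAAACA downstream of that, and the Foxn4 promoter held none of these words. Of all 32851 promoters of this length, 3.17% held the forkhead word, against 1 of the 33 of the family. CCAAT was held by 33.8% of all and by 14 of the 33, TTTGAA by 16% and 3, TATAAA by 12.4% and 3, and an E2F word by 0.654% and 0.

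Among the 9 epithelial genes, Foxp2 and Foxn4 passed the threshold with higher values in CS lungs and 7 genes did not pass. Foxp2, a repressor of the distal epithelium, was 5.39 at the lowest, 6.02 in the median and 6.78 at the highest among CS fetuses, and 4.90, 5.59 and 6.08 among AIR fetuses. The groups overlapped, but 10 of the 12 CS fetuses lay above the AIR mean. The means were 6.06 ± 0.48 (SD, n = 12) after smoke and 5.56 ± 0.36 (SD, n = 9) after air, which differ by 0.50 (SE 0.18) or 1.41-fold. The unadjusted p of limma was 0.0117 and the adjusted p 0.531, and the exact two-sided permutation test over all 293930 regroupings gave an unadjusted p of 0.0181. The lowest CS values were 5.39 in CS male 1 and 5.41 in CS male 6. These arrays had high thymocyte and oesophagus or high heart muscle lists. The highest AIR values, 6.08 in AIR male 5 and 5.96 in AIR female 9, also came from arrays high in another tissue. So did the lowest AIR values, 4.90 in AIR male 1 (oesophagus) and 5.18 in AIR male 2 (heart muscle). The highest CS values, 6.78 in CS male 3 and 6.64 in CS female 7, came from arrays that were not high in such a list. The part of other tissue in these values was not tested. Without the 10 arrays that were high in a list of another tissue, 8 CS and 3 AIR fetuses were left. The difference of Foxp2 between these was 0.74, and with the heart muscle list as a covariate over all fetuses it was 0.42.

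Foxn4, known from retina and spinal cord and, in frog embryos, from multiciliated cells, had a mean of 2.28 over all arrays, not far above the dim level of 1.97. Among CS fetuses it was 1.86 at the lowest, 2.48 in the median and 3.26 at the highest, and among AIR fetuses 1.54, 1.99 and 2.35. It lay above that level in 17 of 21 arrays, and 11 of the 12 CS fetuses lay above the AIR mean although the groups overlapped. The means were 2.50 ± 0.41 (SD, n = 12) and 1.97 ± 0.25 (SD, n = 9), a difference of 0.53 (SE 0.15) and a fold of 1.44. Foxn4 had an unadjusted p of 0.0019 in limma, an adjusted p of 0.445 and an unadjusted exact permutation p of 0.00272. The AIR mean of 1.97 lay at the dim level itself, where intensities are compressed, so that the fold is that of the intensities on the array. The difference was 0.75 between the 8 CS and 3 AIR fetuses left without the arrays high in other tissue. With the heart muscle covariate it was 0.47.

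Foxp1, the partner repressor of Foxp2, did not pass the fold limit. Its values were 6.47, 6.56 and 6.77 at the lowest, median and highest of the CS fetuses and 6.25, 6.42 and 6.61 of the AIR fetuses. All 12 CS fetuses lay above the AIR mean while the ranges overlapped. The difference was 0.16 (SE 0.059), a fold of 1.12, with an unadjusted p of 0.0143 and an adjusted p of 0.538 in limma and an unadjusted exact permutation p of 0.0038. Foxp4, the third FOXP gene of the epithelium, had a difference of 0.060 (95% interval -0.15 to 0.27).

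Foxj1, the regulator of motile cilia, did not pass the fold limit either, with a difference below 0. It was 3.79, 4.0 and 4.31 at the lowest, median and highest of the CS fetuses and 4.06, 4.21 and 4.33 of the AIR fetuses, and 10 of 12 CS fetuses lay below the AIR mean. The groups overlapped, and the CS values were spread more widely (SD 0.18, n = 12) than the AIR values (SD 0.081, n = 9). The difference of -0.18 (SE 0.071), a fold of 1.13, had an unadjusted p of 0.02 and an adjusted p of 0.572 in limma and an unadjusted exact permutation p of 0.0127. The FOXA genes of airway and alveolar epithelium had smaller differences with intervals on both sides of 0, -0.083 (95% interval -0.25 to 0.087) for Foxa1, -0.083 (-0.29 to 0.13) for Foxa2 and -0.064 (-0.36 to 0.23) for Foxa3. Foxi1, the regulator of ionocytes, had a difference of -0.13 (-0.40 to 0.13).

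**Figure D2:**
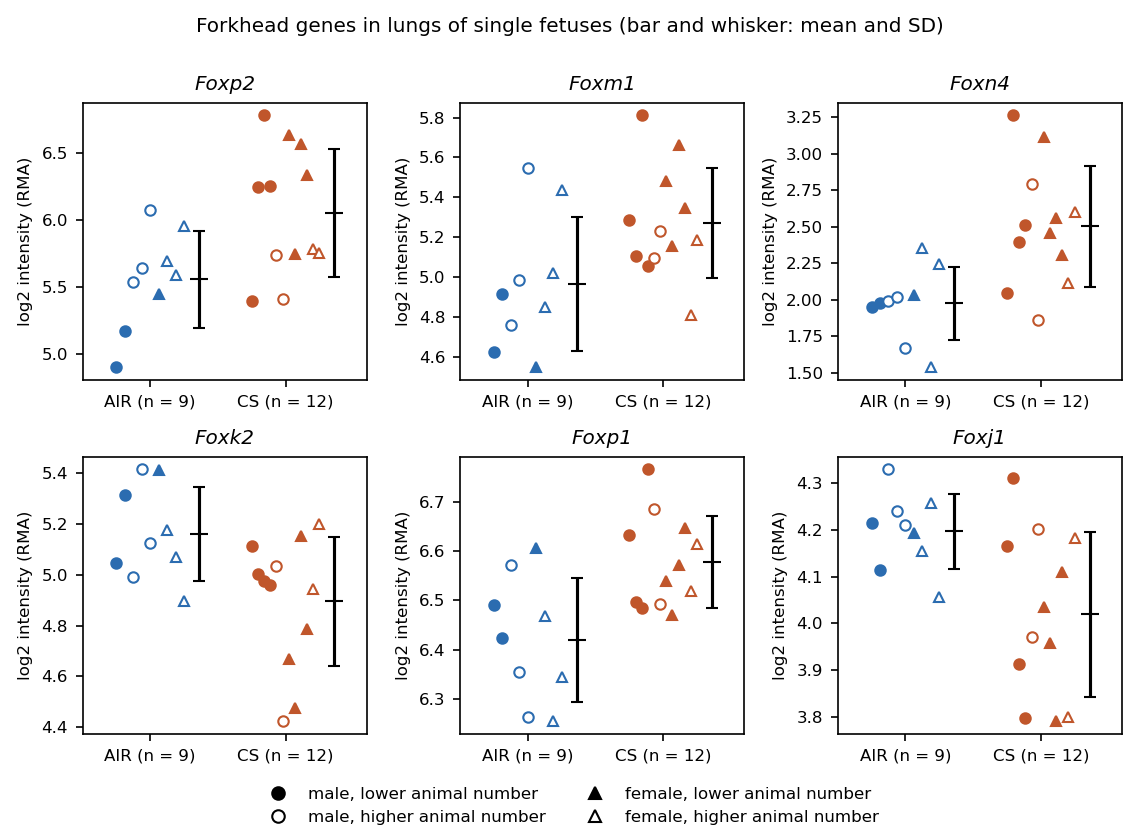
Log2 intensity of 6 forkhead genes in each of the 21 lungs, with AIR (n = 9) in blue and CS (n = 12) in orange. Circles are males, triangles females, filled symbols lower and open symbols higher animal numbers, and bars with whiskers give mean and SD; CS means of Foxp2, Foxm1, Foxn4 and Foxp1 lie above and those of Foxk2 and Foxj1 below the AIR means, with overlap in all 6 genes.

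None of the 6 mesenchymal genes passed the threshold, with differences from -0.20 to 0.32 and a median of 0.063. Foxf1, the hedgehog responsive factor of mesenchyme and capillaries, was 5.93, 6.65 and 6.79 at the lowest, median and highest of the CS fetuses and 6.51, 6.66 and 7.05 of the AIR fetuses. The lowest values belonged to CS fetuses while the medians were nearly equal, and 9 of 12 CS fetuses lay below the AIR mean. The lowest, 5.93 in CS male 5 and 6.025 in CS female 8, came from arrays high in other tissue. CS male 1, also such an array, was at 6.79, and the part of other tissue was not tested. The difference of Foxf1 was -0.20 (95% interval -0.44 to 0.029) with an unadjusted exact permutation p of 0.0903. Foxl1, a factor of gut mesenchyme, had the widest interval of this group, 0.32 (-0.019 to 0.66), with an unadjusted exact permutation p of 0.078. Foxl1 rested on a probe set above the dim level in 14 of 21 arrays. Foxf2, a factor of fibroblasts and pericytes, differed by -0.036 (-0.23 to 0.16), Foxs1 by 0.16 (-0.091 to 0.41), and Foxd1 and Foxd2 were dim, with differences of 0.17 and -0.16. Neighbours in the gene order did not share a direction throughout, since Foxf1 (-0.20), Foxc2 (-0.11) and Foxl1 (0.32) lie side by side with at most 1 coding gene between them, and Foxq1 (0.033), Foxf2 (-0.036) and Foxc1 (-0.0031) are direct neighbours.

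None of the 4 endothelial genes passed either. Foxo1, which restrains the growth of endothelium, was 3.96, 4.45 and 4.85 at the lowest, median and highest of the CS fetuses and 4.14, 4.38 and 4.44 of the AIR fetuses. The AIR values lay inside the range of the CS values. The difference was 0.10 (95% interval -0.069 to 0.27). Foxo3, an inducer of quiescence and stress genes, differed by -0.011 (-0.18 to 0.15). Foxc1 and Foxc2, factors of arteries and lymph vessels, were dim and differed by -0.0031 (-0.23 to 0.22) and -0.11 (-0.48 to 0.25).

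Of the 2 cell cycle genes, Foxm1 passed and Foxn3 did not. Foxm1 was 4.81, 5.21 and 5.81 at the lowest, median and highest of the CS fetuses and 4.55, 4.92 and 5.54 of the AIR fetuses. The groups overlapped, with 11 of 12 CS fetuses above the AIR mean. The means were 5.27 ± 0.28 (SD, n = 12) and 4.97 ± 0.34 (SD, n = 9), a difference of 0.30 (SE 0.13) and a fold of 1.23. For Foxm1 the unadjusted p of limma was 0.0286, the adjusted p 0.607 and the unadjusted exact permutation p 0.0356. Foxm1 fell short of the threshold without any one of the CS replicates 3 (male) and 9 (female) or the AIR replicates 1 (male), 3 (male) and 6 (female), with differences from 0.25 to 0.38 over all arrays left out in turn. The difference was 0.46 between the 8 CS and 3 AIR fetuses left without the arrays high in other tissue. Foxn3, a checkpoint gene that restrains the cycle, differed by 0.097 (95% interval -0.11 to 0.30).

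Among the 8 widely expressed genes Foxk2 alone passed. Foxk2, which with Foxk1 represses autophagy genes, was 4.42, 4.97 and 5.2 at the lowest, median and highest of the CS fetuses and 4.90, 5.12 and 5.42 of the AIR fetuses. The ranges overlapped, and 11 of 12 CS fetuses lay below the AIR mean. The means were 4.89 ± 0.25 (SD, n = 12) and 5.16 ± 0.18 (SD, n = 9), a difference of -0.27 (SE 0.10). The fold of 1.2 lay just past the limit, with an unadjusted p of 0.0153 and an adjusted p of 0.546 in limma and an unadjusted exact permutation p of 0.0152. The call was lost without any one of the CS replicates 6 (male), 7, 8 and 10 (females) or the AIR replicates 2, 4 (males) and 6 (female), with differences between -0.30 and -0.22. The lowest CS values, 4.42 in CS male 6 and 4.48 in CS female 8, came from arrays with a high heart muscle list. The difference was -0.34 between the 8 CS and 3 AIR fetuses left without the arrays high in other tissue. With the heart muscle covariate it was -0.32. The partner Foxk1 differed by 0.034 (95% interval -0.24 to 0.31), and the other 6 genes of this group (Foxj2, Foxj3, Foxn2, Foxo4, Foxo6 and Foxq1) by -0.11 to 0.11. The second probe set of Foxj2 differed by -0.17 and those of Foxe1, Foxo1 and Foxq1 by -0.039, -0.019 and -0.0086, none past the threshold.

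Neither immune gene passed, with differences of 0.078 for Foxn1, the regulator of thymus epithelium, and -0.086 for Foxp3, the regulator of regulatory T cells. The 12 genes of other lineages, among them Foxe1 of the thyroid, Foxl2 of the ovary and Foxd3 of the neural crest, had differences from -0.090 to 0.21 and 0 calls, and 8 of these 12 were dim.

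The sexes were compared next. In females, Foxn4 (0.48) was higher and Foxi1 (-0.37) lower in CS lungs, 2 of 43 genes, against 5.38% of all probe sets past the threshold. In males, Foxn4 (0.56) and Foxd1 (0.34) were higher, 2 of 43 genes, against 4.91%. A test of the difference between the effects in females and males gave 0 of 43 genes with an unadjusted p under 0.05, against 4.41% of all probe sets. Foxp2 differed by 0.47 in females and 0.50 in males, Foxm1 by 0.31 and 0.30, and Foxk2 by -0.27 and -0.26, without passing the threshold in either sex.

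Foxi1 was 2.34, 2.66, 2.95 and 2.43 in the 4 AIR females, and 1.99, 2.26 and 2.43 at the lowest, median and highest of the 6 CS females. Of the CS females 3, at 2.35, 2.42 and 2.43, reached into the AIR range. Its fold was 1.29 with an adjusted p of 0.851 in limma and an unadjusted exact permutation p of 0.0619 over 210 regroupings, and the effects in the sexes differed by -0.46 with an adjusted p of 0.9998. Foxd1, a factor of stromal progenitors and pericytes, was 1.2, 0.87, 1.37, 1.21 and 1.33 in the 5 AIR males and 1.3, 1.54 and 1.84 at the lowest, median and highest of the 6 CS males. These values overlapped and stayed below the dim level in all 21 arrays. The fold was 1.27 with an adjusted p of 0.868 in limma and an unadjusted exact permutation p of 0.0173 over 462 regroupings.

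Each fetus also carries an animal number in its label. Split at the widest gap between these numbers, the lower range held 8 CS and 3 AIR fetuses and the higher range 4 CS and 6 AIR fetuses. Of the 3 AIR fetuses left without the arrays high in other tissue, AIR female 6 alone was of the lower range. Of the 8 CS fetuses left, CS females 11 and 12 alone were of the higher range. That comparison is therefore also uneven over the number ranges. What the numbers stand for is not given in the sources used here. By the methods, animals of different experimental batches and seasons entered the molecular analyses, but the labels do not tie a fetus to a batch. CS and AIR fetuses were therefore also compared within each range. In the lower animal numbers, Foxp2 (1.07), Foxm1 (0.67), Foxn4 (0.59) and Foxd1 (0.36) were higher and Foxk2 (-0.37) was lower in CS lungs, 5 of 43 genes, against 8.25% of all probe sets (3.38% higher and 4.87% lower). In the higher animal numbers Foxd2 (-0.42) alone passed, 1 of 43 genes, against 4.27% (2.36% higher and 1.91% lower). The median difference of the 43 genes was 0.048 in the lower and 0.013 in the higher range, and that of all probe sets 0.0073 and -0.0042.

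Foxp2 was 4.90, 5.18 and 5.45 in the 3 AIR fetuses of the lower range, and 5.39, 6.30 and 6.78 at the lowest, median and highest of the 8 CS fetuses. A single CS fetus, CS male 1 at 5.39, reached into the AIR range. Foxp2 was 2.1-fold higher in CS lungs there, with an adjusted p of 0.0293 in limma and an unadjusted exact permutation p of 0.0121 over 165 regroupings. At a false discovery rate of 10% it was the 1 gene of 43 called in the lower range, against 1.05% of all probe sets. This call rested on the spread shared with the other groups. In a fit of the lower range alone the adjusted p of Foxp2 in limma was 0.176, which misses that rate, and 0.247% of all probe sets reached the same rate. With the shared spread the call was also lost without AIR replicate 1 (adjusted p 0.239) or AIR replicate 2 (adjusted p 0.125). These arrays, AIR male 1 at 4.90 and AIR male 2 at 5.18, were high in the oesophagus and the heart muscle list. The part of other tissue in the difference of this range was not tested. In the higher range Foxp2 was 5.74, 5.41, 5.79 and 5.76 in the 4 CS fetuses and 5.54, 5.67 and 6.08 at the lowest, median and highest of the 6 AIR fetuses. The CS fetuses lay within or below the AIR range there, and the difference was -0.078 with an unadjusted exact permutation p of 0.562 over 210 regroupings. The AIR fetuses themselves did not overlap between the ranges, since all 3 of the lower range (mean 5.18 ± 0.27, SD) lay below all 6 of the higher range (mean 5.75 ± 0.22, SD). How many of all probe sets separate the AIR fetuses in this way was not counted.

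Foxm1 was 4.62, 4.92 and 4.55 in the 3 AIR fetuses of the lower range and 5.05, 5.32 and 5.81 at the lowest, median and highest of the 8 CS fetuses, with no overlap. The AIR values of 4.62 and 4.92 were those of AIR male 1 and AIR male 2, arrays high in other tissue. The difference was 0.67, a fold of 1.59, with an adjusted p of 0.105 in limma and an unadjusted exact permutation p of 0.00606, the smallest that 165 regroupings can give. In the higher range Foxm1 was 5.10, 5.23, 4.81 and 5.19 in the 4 CS fetuses and 4.76, 5.01 and 5.54 at the lowest, median and highest of the 6 AIR fetuses. The CS values lay inside the AIR range there, with a difference of -0.019. The effects in the ranges differed by 1.15 for Foxp2 (unadjusted p 0.00128, adjusted p 0.314 in limma) and by 0.69 for Foxm1 (0.0109 and 0.533). These were the 2 of 43 genes with an unadjusted p under 0.05 for this difference, against 6.76% of all probe sets. Neither reached a false discovery rate of 10%, which 0.0469% of the probe sets did.

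Foxn4 and Foxk2 kept their direction in both ranges. Foxn4 differed by 0.59 in the lower and 0.37 in the higher range, and Foxk2 by -0.37 and -0.21. The effects differed by 0.22 and -0.15 between the ranges, with adjusted p of 0.951 and 0.949 in limma. Of the genes below the fold limit, Foxj1 differed by -0.16 and -0.17, and Foxp1 by 0.070 and 0.20. Foxd1 in the lower range was 1.2, 0.87 and 1.09 in the 3 AIR fetuses. Among the 8 CS fetuses it was 1.28, 1.40 and 1.64 at the lowest, median and highest, without overlap but below the dim level in every array. Foxd1 had an adjusted p of 0.468 in limma there and an unadjusted exact permutation p of 0.00606. Foxd2 in the higher range was 1.48, 1.33, 1.63 and 1.44 in the 4 CS fetuses. Among the 6 AIR fetuses it was 1.61, 1.80 and 2.33 at the lowest, median and highest. These values were also mostly below the dim level, with 1 CS fetus reaching into the AIR range. Foxd2 had an unadjusted p of 0.0498 and an adjusted p of 0.9995 in limma there, and an unadjusted exact permutation p of 0.0333. With the number range as a block in the fit of all fetuses the differences were 0.47 for Foxp2, 0.31 for Foxm1, 0.48 for Foxn4 and -0.28 for Foxk2, all past the threshold.

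**Figure D3:**
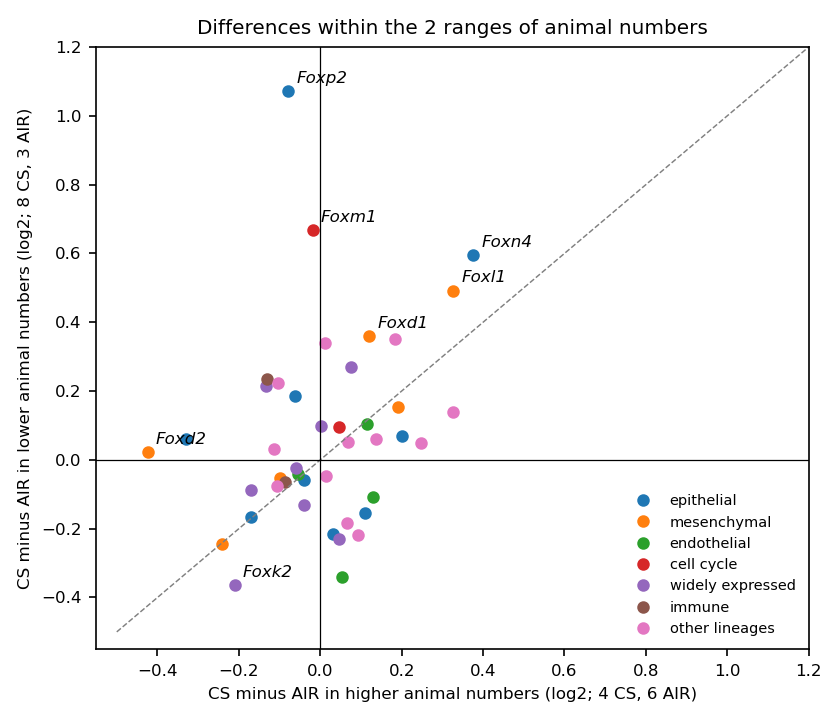
Difference between CS and AIR lungs (log2) of the 43 forkhead genes within the higher (x axis, 4 CS and 6 AIR) and the lower animal numbers (y axis, 8 CS and 3 AIR). Each point is a gene in the colour of its group and the dashed line marks equal differences; Foxp2 (1.07 against -0.078) and Foxm1 (0.67 against -0.019) lie far above the line.

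Genes described as targets of the lung forkhead factors were read beside the factors. The target lists were chosen with earlier results of these data known, so that counts of their genes describe these lungs and are no independent test. Of 16 measured mitotic targets of FOXM1, 14 were higher and 0 lower in CS lungs at the threshold of the study, with a median difference of 0.49, against 2.22% of all probe sets called higher and 2.19% lower. Ccnb2, a mitotic cyclin, differed by 0.78 (SE 0.14), Bub1b, a spindle checkpoint kinase, by 0.83 (SE 0.20), Cenpa, the centromere histone, by 0.54 (SE 0.14) and Cks1b, a subunit of cyclin dependent kinases, by 0.37 (SE 0.11). The adjusted p of these 4 genes in limma were 0.348, 0.416, 0.416 and 0.449. In the lower animal numbers 14 of the 16 targets were higher with a median of 0.84, against 3.38% of all probe sets. In the higher numbers 1 of 16 was higher with a median of 0.12, against 2.36%, so that a single call is near the share of all probe sets.

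Across the 21 fetuses Foxm1 was correlated with the mean of the genes described as FOXM1 targets. Pearson's r was 0.914 and Spearman's rho 0.947, each with an adjusted p of 6e-05 by a two-sided permutation test with 100000 resamples over 6 pairs of gene and list. The relation held within CS (r 0.869, 12 fetuses), within AIR (r 0.959, 9 fetuses), and within the lower (r 0.939) and higher animal numbers (r 0.881). It was 0.881 without the 2 fetuses farthest from the median of Foxm1 and 0.906 after the mean of each exposure had been subtracted. Foxp2 was also set against the FOXM1 targets, with r 0.788 (adjusted permutation p 0.00018) and rho 0.712 (adjusted permutation p 0.00138). Within CS, AIR, lower and higher numbers r was 0.626, 0.844, 0.808 and 0.625, and without the 2 farthest fetuses 0.693. After the mean of each exposure had been subtracted r was 0.697 (adjusted permutation p 0.0015). The 6 pairs were chosen with earlier results of these data known. Only Foxm1 and Foxp2 were set against this list, so that a relation particular to either was not tested. All genes of a pair were read from the same lungs and arrays.

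**Figure D4:**
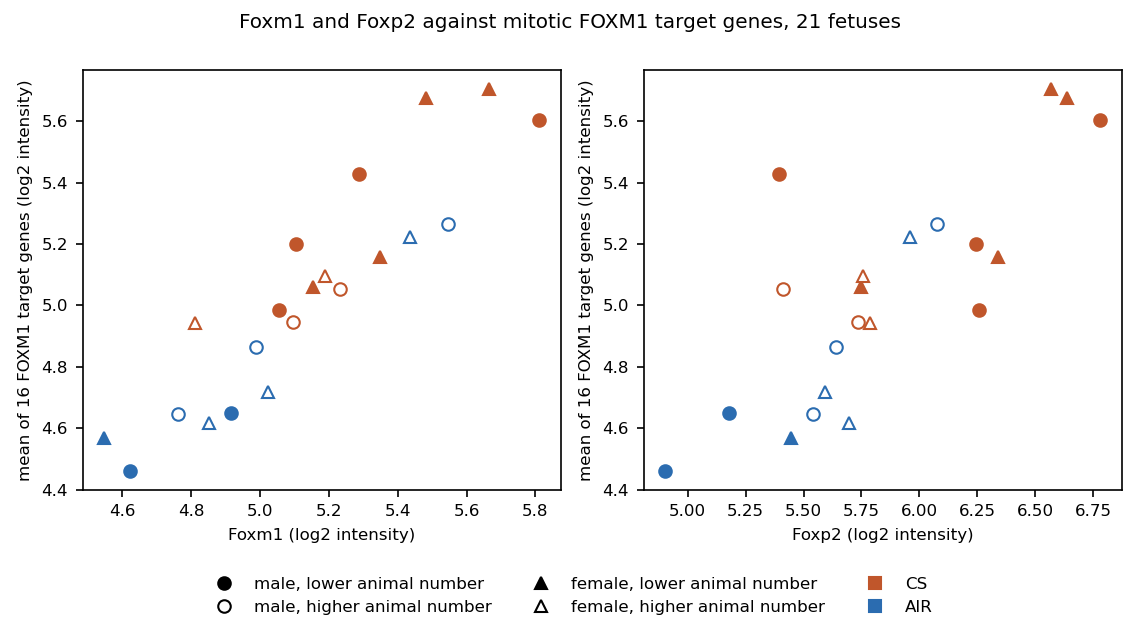
Mean log2 intensity of 16 mitotic FOXM1 target genes against the log2 intensity of Foxm1 (left) and Foxp2 (right) in 21 lungs. Symbols are as in the legend, with CS in orange and AIR in blue; the points rise together with r 0.914 for Foxm1 and 0.788 for Foxp2.

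Genes described as epithelial targets were lower in CS lungs or did not pass. Of 13 genes described downstream of FOXA1 and FOXA2, 6 were lower and 0 higher in CS lungs, with a median difference of -0.28, against 2.19% of all probe sets called lower. They included Lamp3 (-0.54, SE 0.16), a lamellar body protein, Sftpb (-0.43, SE 0.15) and Sftpa1 (-0.45, SE 0.17), surfactant proteins, and Scgb1a1 (-0.71, SE 0.26), the secretory protein of club cells. In the lower numbers 7 of 13 were lower with a median of -0.65, against 4.87%, and in the higher numbers 0 of 13 passed, with a median of 0.030. The correlation of Foxa2 with the mean of this list did not pass, with r 0.190 and rho 0.240 (adjusted permutation p 0.411 and 0.298). Of 7 genes described under FOXP control, 2 were lower and 0 higher, against 2.19% of all probe sets called lower, and the other 5 did not pass. The 2 were Scgb1a1, which the FOXA list also holds, and Aqp5 (-0.47, SE 0.18), a water channel of alveolar type I cells. In the lower numbers 3 of these 7 were lower, against 4.87% of all probe sets, and in the higher numbers 0 passed, with medians of -0.21 and 0.038.

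Of 18 cilia genes described downstream of FOXJ1, 1 passed, Rsph4a (-0.36, SE 0.15), a radial spoke protein, a share near the 4.41% of all probe sets, and the median difference was -0.063. In the lower numbers 5 of 18 were lower with a median of -0.25, against 4.87%, and in the higher numbers 0 passed, with a median of 0.035. Foxj1 had r 0.243 and rho 0.238 with the mean of these genes (adjusted permutation p 0.348 and 0.298). Of 15 vascular and mesenchymal genes described downstream of FOXF1, S1pr1 (-0.46, SE 0.15), a receptor of endothelium, was lower and Gli1 (0.29, SE 0.14), a hedgehog effector, higher, against 4.41% of all probe sets called in either direction. In the lower numbers 6 of 15 were lower with a median of -0.25, against 4.87%. In the higher numbers 1 was higher and 0 lower, against 2.36% of all probe sets called higher, with a median of 0.073 and 12 of 15 genes above 0. Foxf1 had r 0.451 and rho 0.505 with this list (adjusted permutation p 0.0591 and 0.031). Within AIR r was 0.797, within CS 0.203, within the lower numbers 0.595 and within the higher 0.345, and without the 2 farthest fetuses 0.501. With the mean of each exposure subtracted, r of Foxf1 with this list was 0.391 (adjusted permutation p 0.117). Of 17 genes described as induced by FOXO factors 0 passed in CS against AIR, where 4.41% of all probe sets did, with Cat, the catalase, at -0.23 (SE 0.080). In the lower numbers 4 of 17 were lower with a median of -0.11, against 4.87%, and in the higher numbers 0 passed, with a median of 0.042 and 11 of 17 genes above 0. Foxn1 had r 0.476 and rho 0.532 with the thymocyte list (adjusted permutation p 0.0454 and 0.028). The correlation fell to 0.108 without the 2 fetuses farthest from the median of Foxn1, so that it rests on them, and it was 0.639 within CS, 0.0765 within AIR, 0.59 within the lower and 0.135 within the higher numbers.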

How the data were processed

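Total RNA of 21 fetal lungs had been amplified and hybridized by the authors to Affymetrix Mouse Gene 2.1 ST arrays. The values deposited by the authors are on a log2 intensity scale, 1 per probe set and array, and were made with RMA in Affymetrix Expression Console 1.3.0.187 (background correction, sketch-quantile normalization and median polish), which compresses low intensities. The genome build behind the probe sets is not given in the sources used here. The authors left out further AIR arrays after quality control. Of 41345 probe sets, 802 that repeated the values of another were removed and 40543 tested. A single gene symbol was carried by 23521, several by 1820 and none by 16004 in the array annotation, and 23328 were matched to RefSeq by gene number. No filter on detection was applied. The number of arrays limits the precision, and array correlations were 0.950 to 0.971.

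Sexes were merged for the fit of CS against AIR, made in limma (3.58.1; R 4.3.3) with the functions lmFit and eBayes. Further fits gave each sex and exposure, or each number range and exposure, a mean of its own with 1 shared spread. Adjusted p (Benjamini-Hochberg) covers all 40543 probe sets. Exact permutation tests were two-sided and unadjusted, with numpy (2.4.6) and scipy (1.17.1) under Python (3.11.15). The fits were tested on simulated data. Alternatives changed the probe sets, variance model, normalization, weights, blocks, covariates, thresholds and arrays.

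Members, member groups, target lists and tests were chosen with earlier results of these data known. Described with values were the genes past the threshold in any comparison and those with a known lung role (Foxa1, Foxa2, Foxj1, Foxp1, Foxp2, Foxp4, Foxf1, Foxf2, Foxc1, Foxo1, Foxo3 and Foxm1), and from each target list up to 4 genes by lowest p. Foxn4 was left out of the counts of the FOXJ1 list. Replicate numbers shared by CS and AIR labels did not pair the fetuses.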

Additional observations from a re-analysis of the deposited data

Results flagged for a closer look

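Foxp2 and Foxm1 were singled out because the effect of CS differed between the ranges of animal numbers by an unadjusted p under 0.05. The effect in the lower range exceeded that in the higher range by 1.15 for Foxp2 and by 0.69 for Foxm1 on the log2 scale. The adjusted p in limma were 0.314 and 0.533.

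Foxd1 in AIR female 7 was 1.87, far from the other 8 AIR fetuses, of which the nearest was 1.37 and the median of all 9 was 1.21. The gap was 0.499 of the range, against a critical value of 0.493, and was 1 outlying value among 43 genes tested, while chance alone gives about 1 in 20. AIR female 7 was also high in the oesophagus list, 1.87 above the median of all arrays, and the part of this in the Foxd1 value was not tested.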

How the results depend on the processing

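The 4 forkhead calls in CS against AIR became 0 at a false discovery rate of 10% and 0 at a fold over 1.5. Under the other 14 settings of this comparison, single arrays left out aside, the count stayed between 3 and 5. Foxp2, Foxn4 and Foxm1 were called in all of these 14. Foxk2 fell below the fold limit of 1.2 after a second quantile normalization (-0.26), with array weights (-0.25) and with sex as a covariate (-0.26), always with an unadjusted p under 0.05. Foxc1 turned to 0.016 with the number range block, 0.020 with the heart muscle covariate and 0.19 without the arrays high in other tissue. The correlation of Foxn1 with the thymocyte list was 0.464 after the exposure means were subtracted (adjusted permutation p 0.0561). With each array left out in turn, the count of calls ran from 2 to 5 in CS against AIR (2 without AIR female 6), from 0 to 3 in females, 1 to 4 in males, 3 to 6 in the lower and 0 to 2 in the higher animal numbers, from 0 to 3 for the difference between the sexes and from 2 to 3 for that between the ranges. Arrays left out of the fits by sex and range were chosen after seeing the data. In the lower animal numbers a false discovery rate of 10% called 424 probe sets with the spread shared over all groups and 100 in a fit of that range alone, where Foxp2 (1.07) missed it with an adjusted p of 0.176 in limma, and its adjusted p ran from 0.00609 to 0.239 with arrays left out. At the threshold of the study Foxp2 and Foxm1 kept their calls there in all 21 such fits, while Foxn4 lost it without AIR replicate 1, Foxd1 without AIR replicates 2 or 6 and Foxk2 without CS replicates 7 or 8 or AIR replicates 2 or 6. In males Foxn4 lost it without CS replicate 2 and Foxd1 without CS replicate 6 or AIR replicate 2, and in females Foxn4 lost it in 12 of 21 fits and Foxi1 in 13, as Foxd2 did in the higher numbers in 13. Among single genes, leaving out 1 array turned the sign of Foxf2 (-0.074 to 0.0062), Foxc1 (-0.042 to 0.063) and Foxo3 (-0.041 to 0.031). The number range as a block gave 5 calls, with Foxl1 added. The replicate number as a block gave the same 5, but the replicate numbers did not pair the fetuses. Over 9 numbers shared by CS and AIR the correlations of their deviations ran from -0.0741 to 0.133, with 1 over 0.1. Detection calls were not at hand, and 13 of the 43 genes had a mean at the level of olfactory receptors, where intensities are compressed.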
